A study of Homo sapiens with 4 samples.

Results

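The genes described here encode small acidic or DNA-associated nuclear proteins, namely ANP32A, ANP32B and ANP32E, the high mobility group genes HMGB1, HMGB2, HMGN1 and HMGN5, and the prothymosin family genes PTMS and PTMA. They are 9 of 20056 annotated protein-coding genes, and the peaks that overlap their annotated spans came to 28 of 1766. The genes were chosen by the reads per bin, ranks and overlaps of their peaks in these same lists, so those values are given as a description and no test was made on them. The RNA was that of RD, an established human cell line of embryonal rhabdomyosarcoma, and was captured with biotinylated antisense probes. Exon 2 of ZNF609, the exon of the circular RNA circ-ZNF609, was targeted by separate even and odd sets of probes. A control set was directed at the bacterial LacZ mRNA, which human cells lack. Of the 4 samples, the 3 pull-downs were used, with 1 library each, and the total lysate (input) was not analysed here. No treatment or genetic change of the cells is named in the labels.

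ANP32 proteins pair a leucine-rich repeat domain with a long acidic tail, and serve as histone chaperones and as regulators of histone acetylation and of phosphatase activity. The HMGB proteins bend DNA through HMG boxes, the HMGN proteins bind nucleosomes, and parathymosin and prothymosin alpha are small, highly acidic proteins that bind linker histones. Most are abundant in the nuclei of dividing cells, and several have many processed pseudogenes. Pull-down with antisense probes recovers the targeted RNA, RNAs that associate with it, and RNAs that bind the probes or beads.

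The even list held 502 peaks with 482418 reads, the odd list 542 peaks with 279415 reads and the LacZ list 722 peaks with 219401 reads. Each peak was given as reads per bin of 170 bases, with no scaling to library size, so levels of different lists were not compared as amounts. Reads per bin had a median of 293 over even peaks, 221.5 over odd peaks and 115 over LacZ peaks. Without replicates no value has an error between samples. Shares of reads carry 95% intervals by the exact Clopper-Pearson method. They take in counting error only, since no molecular identifiers are described and reads need not be independent molecules. The amount of an RNA in the cells and its recovery by the probes cannot be told apart in these data. Of 14 markers of muscle lineage fixed for RD cells, 5 had a peak in some list (DES, TNNT1, TNNT2, ACTC1 and CDH15). Over all protein-coding genes 4.22% had one. TNNT2 and CDH15 had LacZ peaks as well, and the ACTC1 peak also overlaps GJD2-DT. A peak list does not give expression of the other markers.

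Peaks of the group were found mainly with ZNF609 probes. Among the 9 genes, 6 had an even peak, 6 had an odd peak and 2 had a LacZ peak. Over all protein-coding genes, 1.54% had an even peak, 1.64% an odd peak and 2.22% a LacZ peak. ANP32A, ANP32B, HMGB2 and HMGN5 were recovered by both sets of ZNF609 probes and not by LacZ probes, a class that held 4.96% of the 847 protein-coding genes with a peak in any list. ANP32E had even peaks alone, HMGN1 odd peaks alone, PTMA a LacZ peak alone and PTMS peaks with all 3 probe sets. HMGB1, which encodes the founding HMG-box protein, had 0 peaks in its span of 160894 bases. The group held 17 even, 9 odd and 2 LacZ peaks, and 0 of the 28 overlapped another annotated gene.

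Merged over the lists, these peaks made 20 regions. Of them, 6 were found with even and odd probes and not with LacZ probes, against 54 of all 1549 regions (3.49%). They comprised 2 regions of ANP32B and 1 each of ANP32A, HMGB2, HMGN5 and PTMS. A further 10 regions were even alone, 2 odd alone, 1 LacZ alone and 1, in PTMS, common to all 3 lists. Of all regions, 24.1% were even alone, 25.8% odd alone, 38.7% LacZ alone and 2.52% common to all 3. The group had 0 regions shared by LacZ probes with a single ZNF609 set, a class that held 5.42% of all regions, so a count of 0 among 20 is near the background. With a stricter p-value limit of 0.001, 0 of the 6 shared regions were left, because in each the even or the odd peak had a p-value above it.

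**Figure D1:**
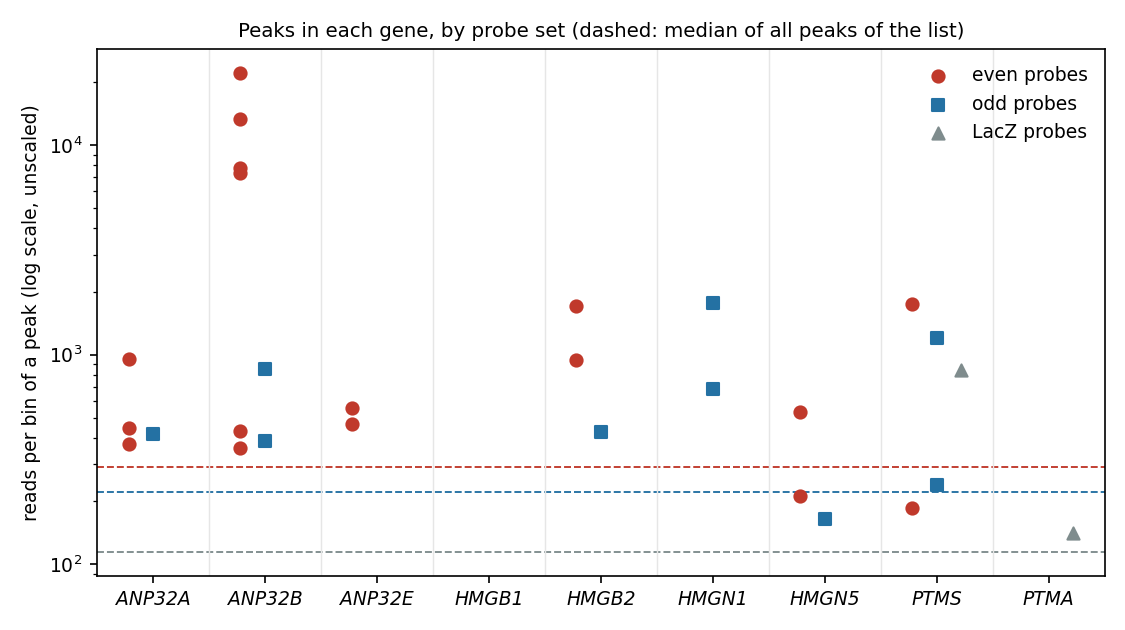
Reads per bin of each peak (log scale, unscaled) in the 9 genes, with 1 point per peak, coloured by probe set, and dashed lines at the median of all peaks of each list. The 4 strongest ANP32B peaks with even probes lie between 7375 and 21973 reads per bin, above every other peak plotted, and HMGB1 has no point.

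The group took a large part of the even reads, and most of that part was ANP32B. Its even peaks held 101740 reads, 21.1% (95% interval 21.0 to 21.2) of the list, over 4420 bases, with a mean of 3910 reads per bin against 597 over the whole list. The members other than ANP32B held 2.77% of the even reads, with the ANP32B reads kept in the total. In the odd list the group held 2.34% (2.28 to 2.40) of reads over 1700 bases, with a mean of 654 reads per bin against 329 over the list. In the LacZ list it held 0.449% (0.422 to 0.478) over 340 bases, with a mean of 493 reads per bin against 181. These shares depend on what was called a peak in each library, and with p-values under 0.001 the even share of the group was 13.3%. With its single strongest peak left out of the group but kept in the total, the group held 12% of even reads.

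ANP32B (gene ID 10541), a histone chaperone of the ANP32 family, spans chromosome 9, 97983341 to 98015943, on the plus strand of GRCh38. It had 6 even peaks, 2 odd peaks and 0 LacZ peaks, and 3 of the 338 genes in the even list had 6 peaks or more. The even peaks at 97994631 and 97998541, each 1 bin wide, had 360 and 431 reads per bin, close to an ordinary peak of that list. The next 4 along the gene were far higher. The peak at 98004831 to 98005170 had 7793 reads per bin, that at 98011121 to 98011460 had 21973, that at 98012311 to 98012480 had 13307, and that at 98015201 to 98015540 had 7375. By reads per bin these were the ranks 3, 1, 2 and 4 of 502, so ANP32B filled the first 4 places of the even list. The gene held 88380 reads, 18.3% (18.2 to 18.4) of the list. PRRC2C, the next gene by share, held 4.16% from 1 peak, followed by the helicase gene DDX27 with 2.17% and the glycolytic gene GPI with 2.12%.

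With odd probes ANP32B was recovered at 2 of the same 6 places. The odd peak at 98012311 had 857 reads per bin, at rank 23 of 542, and that at 98015201 had 387.5, at rank 115. Together they made 0.584% (0.556 to 0.613) of odd reads, at rank 46 of the 359 genes in that list. Even and odd peaks covered the same bases at these places, with 15.5 and 19.0 times as many reads per bin in the even list. Across the 52 peaks that were identical in the even and odd lists, the ratio of even to odd reads per bin had a median of 1.33 and ran from 0.242 to 19.0. The ANP32B peaks had the highest and second highest ratio of the 52, and the next, in NCL, had 5.88. A common scaling of either library would move all 52 ratios by the same factor and leave this order as it is.

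**Figure D2:**
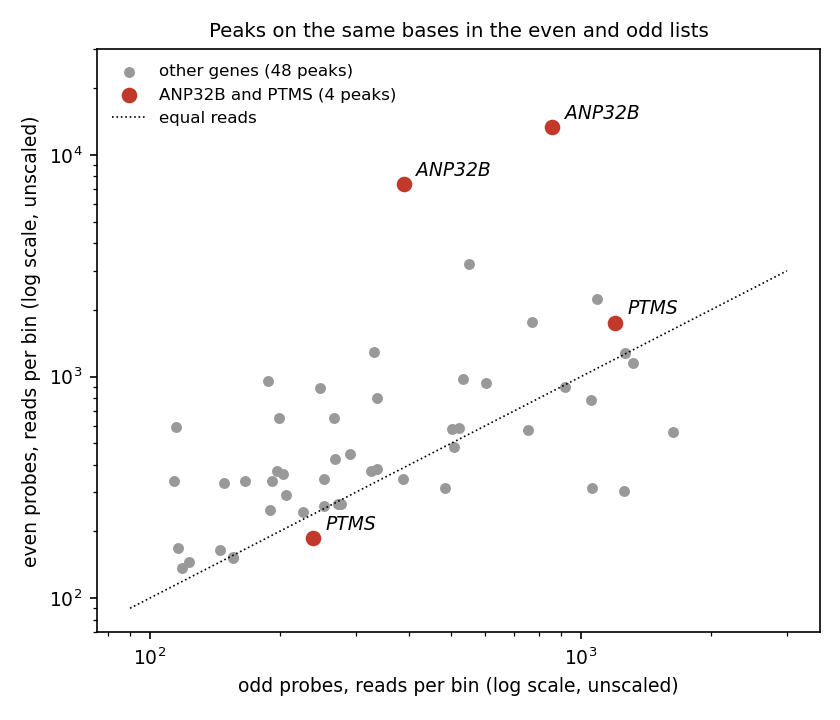
Reads per bin with even probes (vertical) against odd probes (horizontal), both on log scales and unscaled, for the 52 peaks that cover the same bases in both lists, with a dotted line at equal reads. The 2 ANP32B peaks stand above the other points, while the 2 PTMS peaks lie close to the line.

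The order of the ANP32B peaks by p-value differed from the order by reads. The peaks at 98015201 and 98012311 had the smallest p-values of the even list, 3.5e-15 and 1.33e-14. The peak with the most reads, at 98011121, had a p-value of 0.00181 and was at rank 230, and that at 98004831 had 0.00171 and was at rank 224. These places differ in the eighth deposited column, an unnamed score that had the same value in all 52 identical even and odd peaks and therefore belongs to the place and not to the library. At 98011121 the score was 0.0397, the highest of the even list, and at 98004831 it was 0.0206. At 98015201 it was 0.00756. At 98012311, a place with 1 of the 2 smallest p-values, it was 0.0158, still at rank 10 of 502 by score. The median of the even list was 0.00282. With p-values under 0.001 the peaks at 98011121 and 98004831 are left out and ANP32B held 11.2% of even reads.

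The fewest reads with which a peak was called rose with the score in each list. Among even peaks 1 bin wide and without the fixed value of 0.01 that many bins hold, the fewest reads per bin were 108 where the score was up to 0.001 and 898 where it was above 0.015. In the odd list the same limits were 105 and 564, and in the LacZ list 38 and 227. Members tended to lie at high scores, with 13 of 17 even and 7 of 9 odd peaks above the median of their list. A place without a peak may thus have had reads. Of the 4 ANP32B places with even peaks alone, this bears most on the strongest. It had a score of 0.0397, and the highest score of any odd peak was 0.0259. The place at 98004831 had a score of 0.0206, below that highest odd score. The places at 97994631 and 97998541 had low scores of 0.00316 and 0.0018. Odd peaks 1 bin wide with scores above 0.001 and up to 0.005 were called from 116 reads per bin. The sources used here do not say what column 8 measures, and its part in the difference between even and odd was not tested.

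**Figure D3:**
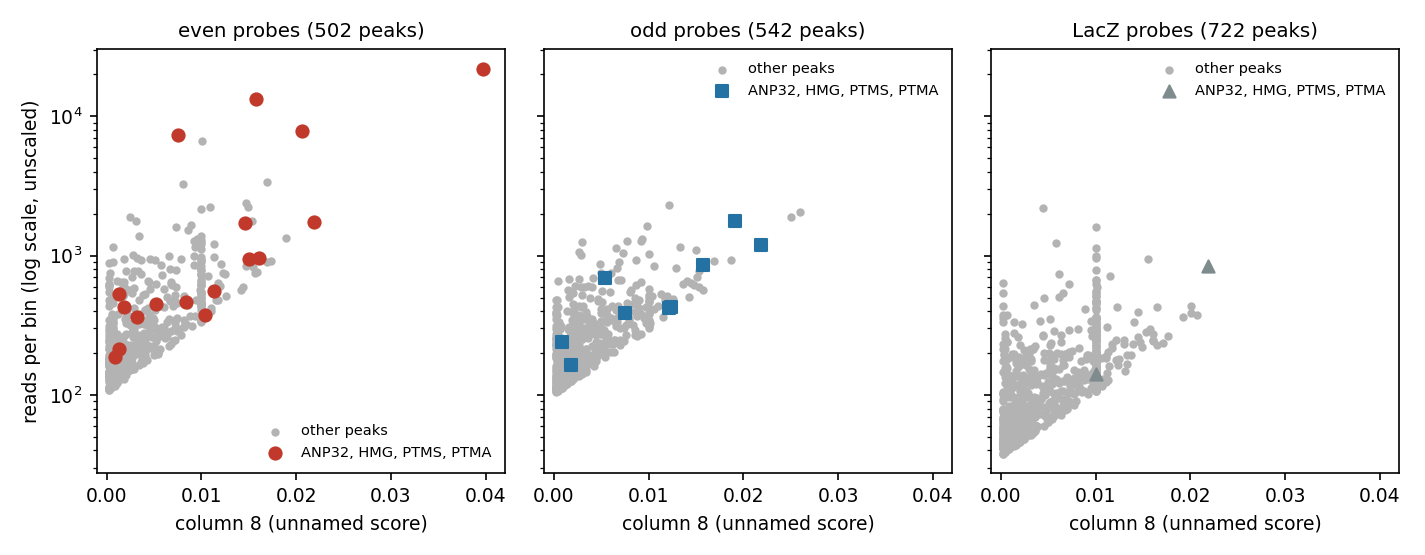
Reads per bin (log scale, unscaled) against the unnamed score of column 8 for all peaks of the even, odd and LacZ lists, with the peaks of the 9 genes in colour. In each list the lowest reads per bin rise with the score, and the strongest ANP32B peak is the point at 0.0397 in the even list.

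ANP32A (gene ID 8125), an inhibitor of a protein phosphatase and of histone acetylation, spans chromosome 15, 68778535 to 68820895, on the minus strand. It had 3 even peaks, 1 odd peak and 0 LacZ peaks. The even peaks at 68779961, 68782851 and 68784381 had 374, 958.5 and 447 reads per bin. The odd peak, at 68783021 to 68783190, had 421 reads per bin and lay within the strongest even peak. All of them were within a stretch of 4590 bases. ANP32A held 0.568% (0.547 to 0.589) of even reads and 0.151% (0.137 to 0.166) of odd reads. Its p-values were modest, from 0.000295 to 0.00831 for the even peaks and 0.00719 for the odd peak.

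ANP32E (gene ID 81611), which removes a histone variant from chromatin, spans chromosome 1, 150218417 to 150236112. It was the ANP32 gene recovered with even probes alone. Its peaks at 150226621 to 150226960 and 150229001 to 150229170 had 556.5 and 465 reads per bin, at ranks 111 and 141. They made 0.327% (0.311 to 0.344) of even reads. Their scores in column 8 were 0.0113 and 0.00834. Odd peaks 1 bin wide had at least 326 reads per bin at scores above 0.01 and up to 0.015. At scores above 0.005 and up to 0.01 they had at least 187. The missing odd peaks therefore do not show that odd reads were absent. Each of the 6 members in the even list had 2 or more peaks there, against 35.6% of the protein-coding genes in that list. In the odd list 3 of 6 members did, against 41.2%, and in the LacZ list 0 of 2, against 30.1%.

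HMGB2 (gene ID 3148), a DNA-bending protein of proliferating cells, spans 2983 bases on chromosome 4, 173331376 to 173334358. Its even peaks at 173332001 to 173332340 and 173332681 to 173333020 had 1704 and 947 reads per bin, at ranks 16 and 40. The odd peak covered the first bin of the stronger even peak, 173332001 to 173332170, with 427 reads per bin at rank 94. HMGB2 held 1.1% (1.07 to 1.13) of even reads, the second highest share in the group and rank 15 of 338 genes. In the odd list it held 0.153% (0.139 to 0.168), at rank 180 of 359. Its p-values in the even list were 0.000152 and 0.00242, and in the odd list 0.00741.

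HMGN5 (gene ID 79366), a nucleosome-binding protein with a long acidic tail, spans 88215 bases on chromosome X, 81113699 to 81201913, on the minus strand. Despite that length its peaks lay within 1530 bases. The even peak at 81114821 to 81115330, 3 bins wide, had 531 reads per bin. Its p-value of 1.07e-05 was at rank 45. A second even peak at 81116181 had 213 reads per bin. The odd peak at 81114991 to 81115160 covered the middle bin of the first, with 165 reads per bin at rank 384. HMGN5 was the weakest of the genes recovered with both ZNF609 sets, with 0.374% (0.357 to 0.392) of even reads and 0.0591% (0.0504 to 0.0688) of odd reads. Both places had low scores in column 8, 0.00128 and 0.00135 in the even list.

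HMGN1 (gene ID 3150), a nucleosome-binding protein that loosens chromatin, led the group in the odd list and had 0 even and 0 LacZ peaks. It spans chromosome 21, 39342315 to 39349088, on the minus strand. The peak at 39348881 to 39349050 had 1768 reads per bin, rank 4 of 542, and that at 39343101 to 39343270 had 689. The latter had the smaller p-value, 8.59e-06 against 0.000536, and was at rank 23 by that measure. The gene held 0.879% (0.845 to 0.915) of odd reads, at rank 22 of 359 genes, between ANKRD11 with 0.896% and CREBBP with 0.873%. Both peaks had p-values under 0.001, and HMGN1 held 2.02% of odd reads when the list was limited to such peaks. The stronger peak had a score of 0.0192 in column 8, and the 5 even peaks 1 bin wide with a score above 0.015 had at least 898 reads per bin. At the weaker peak the score was 0.00541. Even peaks 1 bin wide with scores above 0.005 and up to 0.01 had at least 198 reads per bin, a lower limit. The missing even peaks do not show that even reads were absent.

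The stronger HMGN1 peak was at the very start of the gene, from 39 to 208 bases counted from the annotated transcription start as base 1. It was the 1 peak of the group that reached a promoter window in RefSeq (GRCh38.p14; 250 bases before to 50 after the start), and 6 of the 9 genes had such windows, 8 in all. The end of that window is shown to mark where the peak begins on the RNA, at chr21:39349039-39349068 on the minus strand, 5′ to 3′, with the 12 bases covered by the peak in capitals.
HMGN1 bases 21 to 50: ccgctgtgggtctcagcaGCTCGGGCGGCG

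HMGN1 copies elsewhere in the genome also had odd peaks. RefSeq names 38 HMGN1 pseudogenes, of which 3 had an odd peak and 0 had an even or LacZ peak. Over all protein-coding genes 1.64% had an odd peak, 1.54% an even peak and 2.22% a LacZ peak. A count of 0 among 38 is near those even and LacZ shares. The share over all pseudogenes is not given here. HMGN1P38, which spans 92711694 to 92712907 of chromosome 15, had 695 reads per bin over 92711711 to 92712050, about the level of the weaker HMGN1 peak, with a p-value of 2.07e-06 at rank 13. HMGN1P37, on chromosome X at 154816305 to 154817521, had 155 reads per bin, and HMGN1P36, which lies within TMEM131 on chromosome 2, had 114.5. Together these peaks held 1929 reads, against 2457 in HMGN1 itself. The sources used here do not say how reads with several matching places were aligned, so reads of HMGN1 and its copies may be divided among them.

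PTMS (gene ID 5763), which encodes parathymosin, spans 4590 bases on chromosome 12, 6766363 to 6770952. It was the 1 member with peaks in all 3 lists. The bin at 6766681 to 6766850, which begins 318 bases inside the span, was called with each probe set, with 1750 even, 1199 odd and 844 LacZ reads per bin. It was at rank 15 of 502, rank 10 of 542 and rank 8 of 722. In the lists as deposited its share of reads was 0.363% (0.346 to 0.380) in even and 0.429% (0.405 to 0.454) in odd. The LacZ share, 0.385% (0.359 to 0.411), lay between them. The deposited p-values were 0.00497 in even, 0.00752 in odd and 0.00041 in LacZ. With p-values under 0.001 the bin was therefore left in the LacZ list alone, with a share of 0.602%. Without bins at the fixed score of 0.01 the LacZ share was 0.693%. The even and odd shares of this bin were not recomputed in that way. The score of this bin, 0.0219, was the highest in the LacZ list.

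A second PTMS place, at 6769741 to 6769910, was a peak with both ZNF609 probe sets but not with LacZ probes. Even probes gave 186 reads per bin there, below the median even peak, and odd probes 239, slightly above the median odd peak. The score there was 0.000902. Even to odd ratios were 1.46 at the first and 0.778 at the second PTMS place, at ranks 23 and 46 of the 52 identical peaks, far from those of ANP32B.

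PTMA (gene ID 5757), which encodes prothymosin alpha, spans chromosome 2, 231708525 to 231713551, on the plus strand. Its 1 peak, in the LacZ list at 231711701 to 231711870, had 142 reads per bin at rank 262 and a score at the fixed value of 0.01. Just outside the gene, 564 bases before its start, was a further LacZ peak with 72 reads per bin, which the choice by gene span left out. At the other side of that choice, the HMGN1 peak at the start of the gene lay 38 bases inside the span. RefSeq names 15 PTMA and 50 HMGB1 pseudogenes. Of the PTMA copies, PTMAP2, within DTWD2 on chromosome 5, had an even peak with 192 reads per bin and a LacZ peak with 88. The HMGB1 copies had 0 peaks, where 4.22% of all protein-coding genes had a peak in any list.

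Along the genes, most even and odd peaks of the members with a known strand lay late. For the 5 genes with peaks whose strand the promoter table gives, 8 of 11 even peaks and 5 of 6 odd peaks had their middle past 75% of the gene span from the 5′ end. Over all peaks in a single protein-coding gene of known strand, 35.6% of 343 even, 42.7% of 405 odd and 39.5% of 453 LacZ peaks did. The limit of 75% was chosen after the values were seen. In ANP32A all peaks fell between 86.0% and 96.4% of the span and in HMGN5 between 97.1% and 98.4%. The last ANP32B peak ended 403 bases before the annotated end of the gene, and 3 of its even peaks lay before the limit, at 34.9%, 46.9% and 66.4%. The stronger HMGN1 peak, at 1.81%, and the LacZ peak of PTMA, at 64.9%, also lay before it. Exon positions were not used here, and a gene span includes introns.

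**Figure D4:**
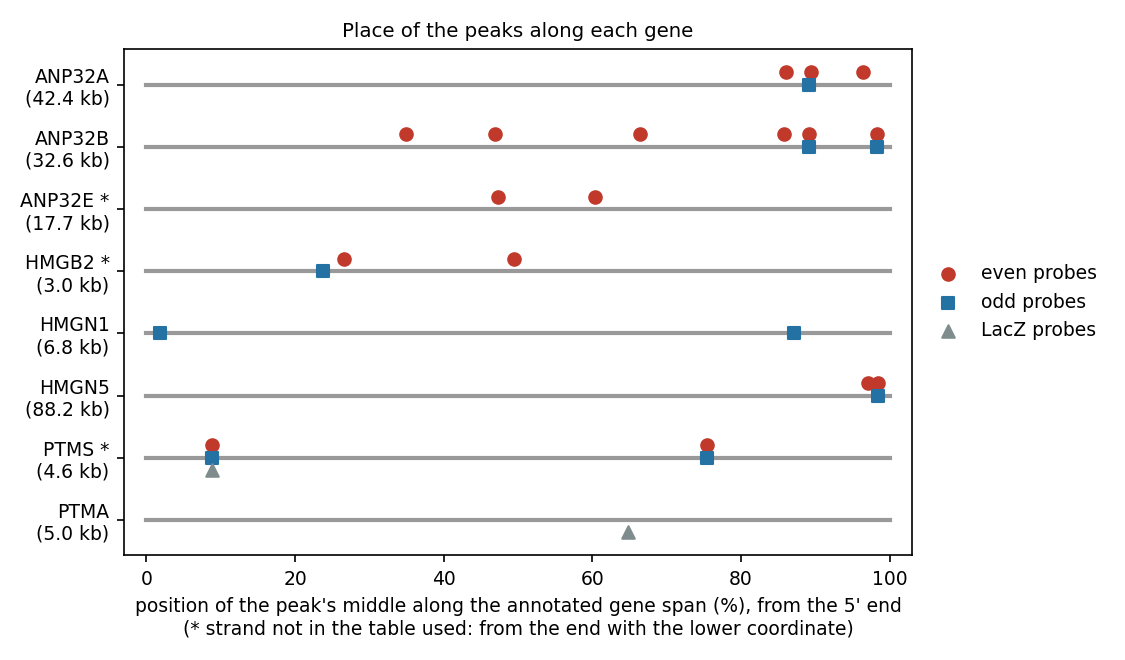
Place of each peak along the annotated gene span, as a percent of its length from the 5′ end (for ANP32E, HMGB2 and PTMS, marked with a star, from the end with the lower coordinate), with 1 point per peak coloured by probe set. The peaks of ANP32A and HMGN5 and the strongest ANP32B peak lie toward the 3′ end. Another strong ANP32B peak lies at 66.4%, and HMGN1 has a peak at each end.

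Relatives of these genes were then counted from lists of family members, partners and other chromatin genes. The other 8 annotated ANP32 and HMG family genes (ANP32D, HMGB3, HMGB4, HMGN2, HMGN3, HMGN4, HMGA1 and HMGA2) had 0 peaks in the 3 lists. So did 8 genes of known ANP32 partners, among them SET and the RNA-binding protein gene ELAVL1. Over all protein-coding genes 4.22% had a peak in any list, so 0 of 8 is near the background in both cases. Of 102 annotated genes on these lists outside the group, 25 had a peak, a higher share than that 4.22%. Even probes gave a peak in 10 of the 102, odd probes in 11 and LacZ probes in 13. Over all protein-coding genes the shares were 1.54%, 1.64% and 2.22%. The lists were chosen with earlier results of these data known, so no test was made on them. In 0 of the 25 were there even and odd peaks without a LacZ peak, which is near the 4.96% of genes with a peak that this class held.

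Among 28 histone chaperone genes, 9 had a peak, of which 6 were in the even list, 4 in the odd and 5 in the LacZ one. For comparison, 4.22% of all protein-coding genes had a peak in any list. Taken by probe set, that share was 1.54% for even probes, 1.64% for odd probes and 2.22% for LacZ probes. NCL, which encodes the acidic nucleolar protein nucleolin, had 6 even peaks, 1 odd peak and 1 LacZ peak. It held 1.97% (1.93 to 2.00) of even reads, 0.394% (0.371 to 0.418) of odd reads and 0.051% (0.042 to 0.0614) of LacZ reads. Its strongest even peak also overlaps the small nucleolar RNA gene SNORD82. CHAF1A, a subunit of chromatin assembly factor, had peaks on the same bases in all 3 lists, as PTMS did, and held 0.935% of even, 0.788% of odd and 0.350% of LacZ reads. NASP, SUPT16H and NAP1L1 had even peaks alone, SPTY2D1 an odd peak alone, SSRP1 and MCM2 LacZ peaks alone, and SUPT6H peaks in all 3 lists.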

How the data were processed

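Libraries from 3 pull-downs were used, 1 per probe set. The aligner STAR 2.5.2b, along with SAMtools, Picard, bedtools, Trimmomatic and bcl2fastq 2.0.2, is listed with GRCh38 per the submitters' processing notes, without settings. The deposited lists are named for the peak caller Piranha and were made per library. They have no header. The signal deposited by the authors (column 5) was read as reads per bin of 170 bases, or the mean over joined bins, since reads per peak were whole (tolerance 0.02) in 100% of peaks. The deposited p-value was below 0.01 in every peak. Column 8 is a deposited score without a name.

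Reads in a peak were reads per bin times bins. Peaks were given to each RefSeq gene span (GRCh38.p14) they overlapped, strand ignored, and an overlap of 1 base or more made peaks shared. Python 3.11.15, pandas 2.3.3 and scipy 1.17.1 were used, and the overlap code was tested on simulated data. With 1 library per probe set there was no test between probe sets. The 9 genes, all with their values, the gene lists, from which genes with a peak were named, and the pseudogenes were chosen with earlier results of these data known. The genes next to the leading member by share of reads were named for the even list and in part for the odd list, and the others are not reported here. Alternatives were a stricter p-value, lists of equal length, other overlap and span rules, and leaving out bins with the fixed score of 0.01.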

Additional observations from a re-analysis of the deposited data

How the results depend on the processing

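Of 63 recomputed values for 13 results, 37 stayed within the counting interval or within 1.5 times the count. Part of these 37 could not change. Giving each peak to the gene with most overlap changed nothing, because no member peak overlapped another annotated gene. Lists of equal length were cut to the 502 peaks of the even list, so even values were fixed. Leaving out bins at the fixed score could not alter even or odd member counts, as no member peak there had it. With p-values under 0.001, 0 member regions were found with even and odd and not LacZ probes, against 6 in the lists as deposited. Even peaks were then left in 4 members, against 6 as deposited, odd peaks in 2 and LacZ peaks in 1. The members held 13.3% of even, 2.21% of odd and 0.602% of LacZ reads, ANP32B 11.2% of even, HMGN1 2.02% of odd and PTMS 0.602% of LacZ reads, and the strongest HMGN1 peak was at rank 2. Without bins at the fixed score of 0.01, the PTMA peak was lost and 1 member was left in the LacZ list. The members then held 24.9% of even, 2.55% of odd and 0.693% of LacZ reads, ANP32B 21.7%, HMGN1 0.956% and PTMS 0.693%, and the PTMS peak was at rank 3. These shares rose because other peaks left the total. In lists of equal length the members held 2.41% of odd and 0.516% of LacZ reads, and PTMS 0.442%. Without the strongest member peak of each list, which was kept in the total, the members held 12% of even, 1.71% of odd and 0.0647% of LacZ reads. By p-value the best-ranked HMGN1 peak was at rank 23, and it is not the peak with the most reads. The best-ranked PTMS peak in the LacZ list was at rank 206, and that of ANP32B, likewise a different peak from the one with the most reads, at rank 1. With 50% of each peak required to be shared, 5 of the 6 regions were left. No paired analysis was possible because there was 1 library per probe set. Depth limits what a missing peak means, since reads outside peaks were not used here.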

Other observations

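Of 13 genes listed for other acidic nuclear proteins, 8 had a peak, against 4.22% of all protein-coding genes with a peak in any list. Even probes gave a peak in 3 of the 13, odd probes in 3 and LacZ probes in 4. Over all protein-coding genes the shares were 1.54%, 1.64% and 2.22%. NUCKS1, an abundant chromatin phosphoprotein, had 3 even peaks with 831, 847 and 742 reads per bin and 1% of even reads, and 0 odd and 0 LacZ peaks. NOLC1, a nucleolar phosphoprotein, had 1 even peak with 874.5 reads per bin. TCOF1, a nucleolar factor of ribosomal RNA synthesis, had 2 odd peaks, the stronger with 615.5 reads per bin, and 2 LacZ peaks elsewhere in the gene. CBX1, a heterochromatin protein, had 2 LacZ peaks with 341 and 299 reads per bin. ACIN1 had 3 odd peaks with up to 326.7 reads per bin, TAF7 had 1 odd peak with 174, and AKAP8L had 2 LacZ peaks with 57 and 56. Among 10 linker histone genes 2 had a peak, and 4.22% of all protein-coding genes had one in any list. H1-3 had an odd peak with 645 reads per bin and H1-1 a LacZ peak with 153.

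Of 26 other genes with HMG boxes, 4 had a peak, against 4.22% of all protein-coding genes with a peak in any list. UBTF, a ribosomal RNA transcription factor, had 3 even peaks and a LacZ peak inside the strongest of them, and held 0.872% of even and 0.184% of LacZ reads. SMARCE1 had an odd peak and a LacZ peak at different places, and CIC and SSRP1 had LacZ peaks alone. Of 12 genes of histone variant exchange, 4 had a peak, against the same 4.22%. VPS72 had an even peak, EP400 and RUVBL1 had odd peaks, and DMAP1 had a LacZ peak.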
